A study of Solanum tuberosum with 136 samples.

Results

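In buds of stored potato tubers, 68 genes stood apart between ethylene and control at week 3 of storage and lay close together at each of the later 4 weeks. They were chosen from the 32878 genes of the deposited count table by the size of the difference alone. For each gene, the mean level of the 4 libraries of a group in CPM (the standard count unit relative to the library total) was put on a log2 scale after adding 1, and d is the ethylene value minus the control value of the same week. A gene was kept when d was at least 0.6 in size at week 3 and under 0.4 in size at weeks 6, 9, 12 and 15. In all, 1079 genes had a d of at least 0.6 in size at week 3, and 1011 of them went past the later limit. The 68 genes left are 35 that were higher and 33 that were lower under ethylene at week 3. The working name of the set is a bud response confined to week 3, and the word confined holds only for the size of d at the weeks sampled, as the later weeks below show.

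Ethylene is a gaseous plant hormone. In the textbook pathway, receptors in the endoplasmic reticulum keep a repressor kinase active, binding of ethylene shuts that brake off, and transcription factors of the EIN3 and ERF families then act on many genes. A potato tuber is a swollen stem whose buds pass from dormancy to sprouting during storage, and stores use continuous ethylene because it holds back the growth of the sprout. No member has a gene name in the tables used here, so the genes are given by their deposited IDs (Soltu.DM, chromosome and number) and no function is assigned to them.

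Tubers of the cultivar Russet Burbank (Solanum tuberosum) were kept as controls or under 10 ppm ethylene for 15 weeks and then without it. Primary bud and flesh were each sampled as controls at weeks 0, 3, 6, 9, 12, 15, 16, 17 and 18, under ethylene at weeks 3, 6, 9, 12 and 15, and after 1, 2 and 3 weeks without ethylene (weeks 16, 17 and 18), with 4 libraries in each of 34 groups. Library totals ran from 16.6 M to 50.9 M counts, and those of the week 3 buds from 29.02 M to 50.9 M. Whether the 4 libraries of each group are independent tubers is not said in the labels, and p-values therefore cover only the variation among these libraries, part of which may be technical. Replicate 1 of the buds 2 weeks after ethylene stood apart from its group in several members, and the counts it moves are also given without it. A bud or flesh sample holds several cell types, and fewer cells of a type and less RNA per cell cannot be told apart. The sources used here do not say how reads from overlapping genes, opposite strands or near-identical copies were assigned, which makes the levels of such genes uncertain.

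At week 3 the members differed by modest amounts. The median d was 0.67 among the 35 higher genes, with a largest value of 1.06, and -0.70 among the 33 lower genes, with a lowest value of -1.23. In 37 of the 68 genes d was under 0.7 in size, and in 4 it was at least 1. The 4 ethylene libraries lay wholly to one side of the 4 control libraries in 55 members, 31 higher and 24 lower, and 20.2% of all genes with counts were separated in that way. By edgeR's quasi-likelihood test with Benjamini-Hochberg adjustment over all genes, 28 higher members (2.63% of all genes tested were called higher) and 22 lower members (2.54% were called lower) passed 0.05. The same libraries chose the members, so these counts describe the choice and nothing is read from them.

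The higher mean of the 2 groups at week 3 ranged from 0.544 to 6492 CPM over the members, with a median of 7.86 CPM. It reached 5 CPM in 42 members and 100 CPM in 7, while 7 members stayed under 1 CPM in both groups. In 13 members at least 1 of the 8 week 3 bud libraries had no counts, and 8 of these had a library at 0 beside one of at least 1 CPM in the same group. The d of such genes rests on few libraries. On the limit at week 3, Soltu.DM.04G031630 was just inside with a d of -0.61 and Soltu.DM.07G013850 just outside with 0.5997. On the limit at the later weeks, Soltu.DM.01G036240 was just inside with a largest later size of 0.397 and Soltu.DM.09G020550 just outside with 0.406. The sign of d in Soltu.DM.01G036240 had turned by then, from -0.66 at week 3 to 0.36 at week 9 and 0.397 at week 12.

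Soltu.DM.07G027200 had the largest d of the higher genes that reached 5 CPM without overlap. Its levels in the ethylene buds of week 3 were 5.27, 4.67, 6.81 and 3.77 CPM, and in the control buds 2.07, 1.28, 3.35 and 2.68 CPM. Every ethylene library was above every control library. The means were 5.13 ± 1.28 and 2.34 ± 0.88 CPM (SD, n = 4), which gives a d of 0.87. Week 0 buds held only 1.48 ± 0.28 CPM, and control buds had climbed to 7.25 ± 0.59 CPM by week 6, when ethylene buds were at 7.03 ± 0.85 CPM. Its control level at week 6 was thus past the level that ethylene buds showed at week 3.

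Soltu.DM.09G003740 was at 8.51, 6.52, 7.57 and 6.95 CPM with ethylene and at 4.38, 3.62, 2.83 and 4.05 CPM in controls of week 3. The groups did not overlap, and the means were 7.39 ± 0.86 and 3.72 ± 0.67 CPM, with a d of 0.83. Here the control buds did not reach the ethylene level of week 3 afterwards: their mean was 3.62 ± 0.51 CPM in week 6 and 3.13 ± 0.92 CPM in week 18.

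Soltu.DM.07G021920 was a lower gene with even libraries. It stood at 15.9, 24.4, 24.9 and 20.3 CPM in the ethylene buds of week 3 and at 42.2, 42.3, 47.6 and 43.95 CPM in the controls. The highest ethylene library was far below the lowest control library, with means of 21.4 ± 4.18 and 44.03 ± 2.55 CPM and a d of -1.01. Control buds went from 62.3 ± 7.51 CPM at week 0 to 12.8 ± 0.85 CPM at week 6, where ethylene buds were at 13.6 ± 2.39 CPM, and back to 38.9 ± 4.09 CPM at week 18.

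Soltu.DM.08G008540 had the lowest d of the genes named by the same rule (-1.21), and 1 library set its size. Its ethylene libraries were at 1.30, 1.67, 3.17 and 3.36 CPM and its control libraries at 3.93, 3.95, 5.13 and 14.2 CPM. The groups did not overlap, but control replicate 4 was far above the other 3. Its edgeR call was lost without that library, and also without ethylene replicate 1 or 2. This member was listed at or near 0 in flesh, at 0.61 ± 0.21 CPM at week 0.

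**Figure D1:**
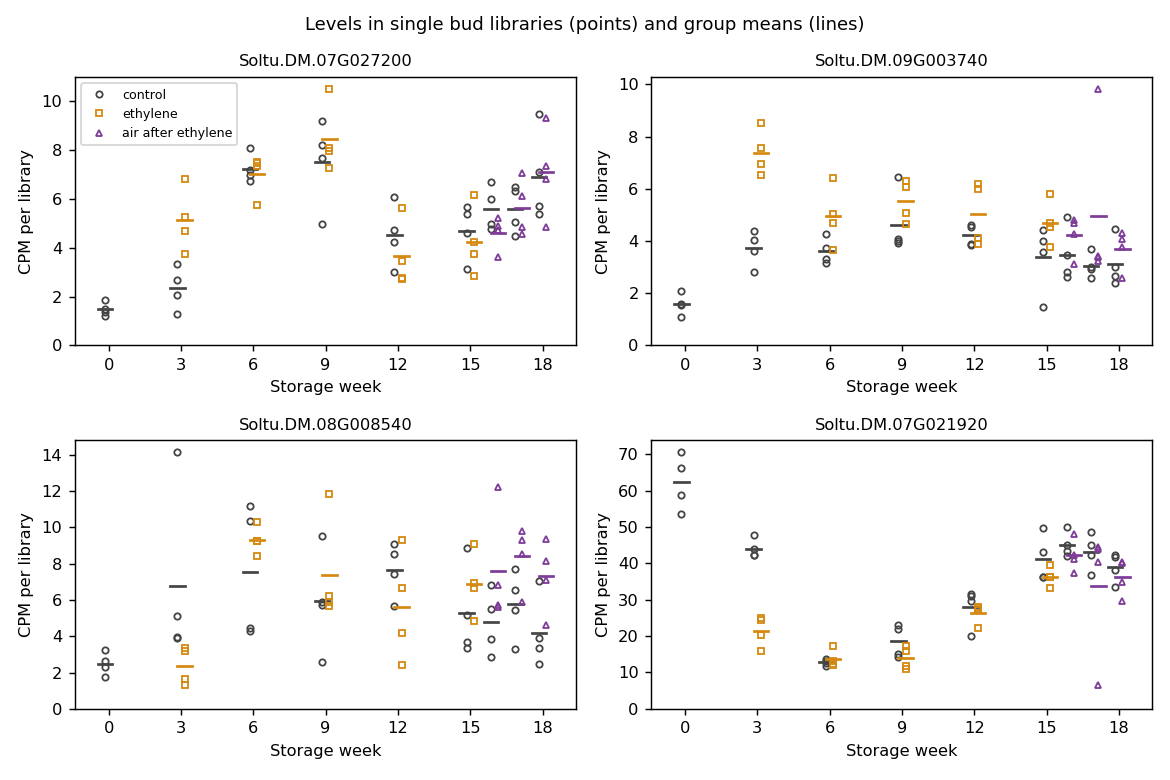
CPM in every bud library (points) and group means (lines) against storage week for the 4 genes named at week 3; circles are control, squares ethylene, triangles the weeks after ethylene. The ethylene and control points of week 3 are apart in all 4 genes, and in Soltu.DM.07G021920 the controls fall from 62.3 CPM at week 0 to 12.8 CPM at week 6.

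The most counts of any member fell on Soltu.DM.10G020640, a lower gene chosen here after its values were seen. It was at 3656, 4631, 4432 and 3804 CPM in the ethylene buds of week 3 and at 6611, 6538, 6550 and 6270 CPM in the controls, without overlap. Its course resembled that of Soltu.DM.07G021920: control buds held 7766 ± 124.9 CPM at week 0, 4594 ± 165 CPM at week 6 and 6019 ± 340 CPM at week 12. The ethylene mean of week 3, 4131 ± 473 CPM, was near the control mean of week 6. In flesh at week 3 it fell from 3686 ± 419 CPM in controls to 2905 ± 155 CPM under ethylene (log2 fold change -0.35, SE 0.06, adjusted p = 1.2e-05 by edgeR).

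Set against week 0, the ethylene buds lay farther away than the controls at week 3 in most members, as they did in most other genes with a d of at least 0.6 in size. These positions share the week 3 libraries with the choice of members and are given as a description. Among the 35 higher genes, week 0 lay below both week 3 groups in 21, between them in 11 and above both in 3. The ethylene buds were farther from week 0 than the controls in 27 of the 35. Among the 353 other higher genes past the same limit, week 0 lay below both groups in 222 and the ethylene buds were farther from it in 275. The median change from week 0 to week 3 was 0.40 on the log2(CPM + 1) scale in controls and 1.04 under ethylene.

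At weeks 6 to 15 the rule holds d under 0.4 in size, so the medians of both treatments could not lie far apart there. At week 6 the median of the higher genes relative to week 0 was 0.89 in controls and 1.12 under ethylene. In 23 of the 35 genes the control level of week 6 was nearer to the ethylene than to the control level of week 3. The same held in 247 of the 353 other higher genes past the week 3 limit. The 33 lower genes mirrored the 35 higher ones. Week 0 lay above both week 3 groups in 23 of 33, and ethylene buds were farther from week 0 in 24, beside 426 and 536 of the 658 other lower genes. Their median change to week 3 was -0.26 in controls and -0.94 under ethylene, followed at week 6 by -0.72 in controls and -0.89 under ethylene. In 21 of the 33, control week 6 was nearer to ethylene week 3, beside 154 of the 658 other lower genes. The control mean of weeks 6 to 15 was nearer to it in only 15, against 22 of the 35 higher genes. Among the other genes this mean was nearer to ethylene week 3 in 178 of 353 higher and 140 of 658 lower ones. The libraries of weeks 6 to 15 also entered the rule, and the other genes are those that went past its later limit. These counts therefore describe the choice, and nothing is read from the contrast between members and other genes.

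**Figure D2:**
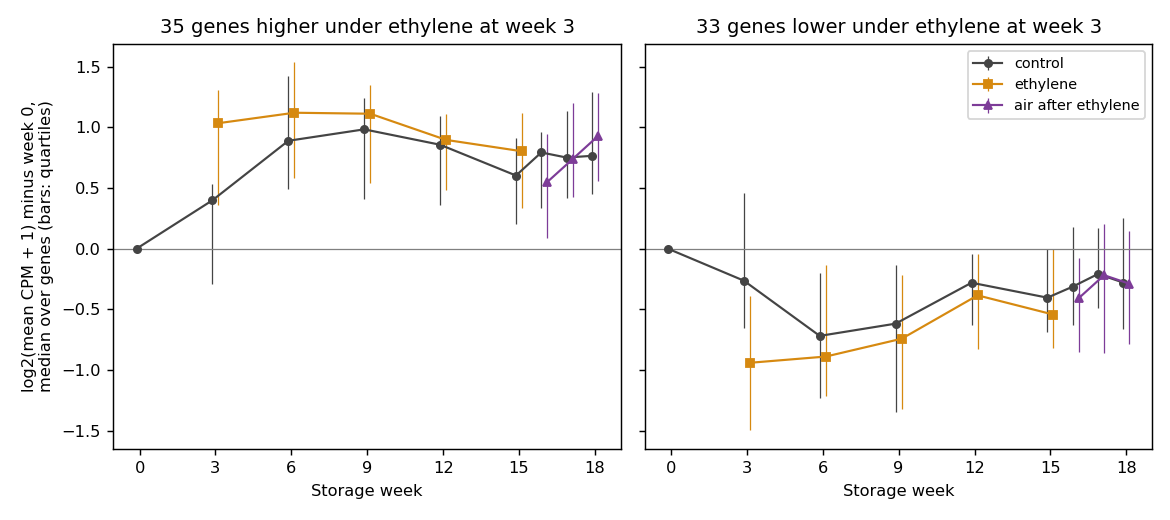
Median over the 35 higher (left) and 33 lower (right) genes of log2(mean CPM + 1) minus the week 0 value, against storage week in buds; vertical bars run between the quartiles over genes. At week 3 the ethylene medians are 1.04 and -0.94 and the control medians 0.40 and -0.26, and the lines lie closer together from week 6 on.

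After week 6 the medians of the lower genes returned part of the way, to -0.28 in control buds at week 12 and -0.28 at week 18. Those of the higher genes stayed up, at 0.86 and 0.77. The rule caps d at these weeks but not its sign or its test. Over weeks 6 to 15 the median d of the higher genes was 0.06, 0.13, -0.01 and 0.14, and that of the lower genes was -0.09, -0.002, -0.06 and -0.02. The median log2 fold changes by edgeR were 0.22, 0.15, -0.05 and 0.30 for the higher genes. They were positive in 28, 25, 16 and 27 of the 35. For the lower genes the medians were -0.03, -0.02, -0.11 and 0.04, and over all genes tested -0.004, -0.02, -0.03 and -0.05. Under edgeR's quasi-likelihood test with Benjamini-Hochberg adjustment, 16 of the 68 members passed 0.05 in at least 1 of these weeks, 8 from each side. In the same fit 44.7% of all genes tested passed. The count was 28 without replicate 1 of the buds 2 weeks after ethylene, which shares the fit. The share of all genes was not worked out without that library. In the fit with all libraries no higher gene was called lower at these weeks. Of the lower genes, 2, 1, 1 and 0 were called higher under ethylene at weeks 6, 9, 12 and 15. In those weeks 1, 4, 4 and 0 of them were called lower. So some lower genes passed against their week 3 direction. Shares of all genes by direction are not given for weeks 6 to 12. At week 15, 8 higher genes were again called higher under ethylene, where 13.7% of all genes were called higher. A small d at the later weeks was therefore not the same as no call. The rule fixes these values, so the counts are a description.

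Some libraries and other genes moved with the week 3 difference in buds. Ethylene replicate 1 was the highest ethylene library for 19 of the 35 higher genes and the lowest for 21 of the 33 lower genes. Control replicate 4 was the highest control library for 14 of the 33 lower genes. Leaving out any 1 of the 8 libraries kept between 56 and 64 members within the rule. Whichever was left out, 31 members kept a d of at least 0.6 in size and 59 a d of at least 0.5. The sign of d was kept in all 68, except without control replicate 1, where it was kept in 66. Without control replicate 4 and ethylene replicate 1 together, a setting added after the data were seen, 29 members passed edgeR's threshold in place of 50.

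Levels of genes that separate the tissues also differed. Over all genes called between the tissues at week 0, the median d in week 3 buds was 0.04 for the 5225 higher in flesh and -0.09 for the 7008 higher in bud, beside -0.0040 over all 24835 genes. Taken from week 0, 61 genes outside the set were at least 4-fold higher in flesh than in bud at 10 CPM or more, and 695 were higher in bud by the same measure. The flesh genes made up 0.311% to 0.430% of the counts in the ethylene buds of week 3 and 0.218% to 0.248% in the controls, against 1.83% to 2.20% in week 0 flesh. Of the 61, 18 were above every control library and 4 below, and their median d was 0.15. The bud genes made up 1.59% to 2.02% under ethylene and 1.89% to 3.34% in controls, where control replicate 4 held 3.34% and the others up to 2.18%. Of the 695, 197 were below every control library and 40 above, with a median d of -0.32. At most 4 of the flesh genes had no counts in any one of these bud libraries. The part of these genes in the values of the members was not tested.

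Members also differed between the tissues before treatment. At week 0, 21 of the 35 higher genes were lower in bud than in flesh and 2 were higher in bud, by edgeR's quasi-likelihood test with Benjamini-Hochberg adjustment (21% of all genes tested were lower in bud and 28.2% higher). Of the 33 lower genes, 19 were higher in bud and 5 lower. The median log2 fold change of bud against flesh was -0.48 for the higher genes and 0.71 for the lower genes, and 0.09 over all genes tested. The genes that were higher under ethylene tended to be flesh-leaning, and the lower ones bud-leaning. The tissue genes above moved in the same direction in the ethylene buds of week 3. Whether the tissue lean of the members bears on their week 3 difference was not tested.

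Soltu.DM.10G005900, a lower gene, was at 9.59, 9.55, 10.2 and 9.75 CPM in week 0 buds, beside 0.892, 1.76, 2.22 and 1.13 CPM in flesh. The tissues did not overlap, with a log2 fold change of 2.65 (SE 0.49, adjusted p = 2.26e-06). Soltu.DM.04G034260, also lower at week 3, had a log2 fold change of 2.13 (SE 0.33, adjusted p = 2.09e-08). In the opposite direction, the lower gene Soltu.DM.04G031630 averaged 15.0 ± 1.76 CPM in bud but 84.7 ± 9.27 CPM in flesh, a log2 fold change of -2.56 (SE 0.16, adjusted p = 8.15e-28). The higher gene Soltu.DM.03G023550 was at 0.135, 0, 0 and 0.162 CPM in bud and at 23.5, 0.498, 6.04 and 21.7 CPM in flesh. It was lower in bud (adjusted p = 9.94e-09), but its flesh libraries were so uneven that no fold is given.

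Flesh supplied libraries that had no part in the choice, and 24 members passed there in their bud direction at week 3. Whether bud and flesh came from the same tubers is not said. Deviations of same-numbered bud and flesh libraries had a mean correlation of 0.19 in week 3 controls and 0.16 under ethylene. The lowest pairs were at -0.25 and 0.07, and other numbers averaged -0.06 and -0.05. The part of shared tubers was not tested. Of the 35 higher genes, 34 were tested in flesh, and 16 rose under ethylene while none was called lower (2.34% of all genes tested were called higher and 2.75% lower; edgeR's quasi-likelihood test with Benjamini-Hochberg adjustment). An unadjusted p under 0.05 was reached by 24, and DESeq2 called 25 members in all, as edgeR did. Here and below, shares of all genes are given for edgeR's adjusted p only. By sign alone, 31 of the 34 had a positive fold change. Of the 33 lower genes, 8 fell and 1 rose, and 26 had a negative fold change. The median log2 fold change was 0.47 for the higher genes and -0.49 for the lower ones, and 0 over all 21718 genes tested. In flesh itself the flesh genes and bud genes described above had a median d at week 3 of 0.09 and 0.

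These 24 were 35.8% of the 67 tested and 2.17% of the 1106 genes called in flesh at week 3. Of these, 23 had also passed in bud. Among the other genes with a d of at least 0.6 in size at week 3 in bud, 149 of 895 (16.6%) passed in flesh in their bud direction, 77 of 297 higher genes (25.9%) and 72 of 598 lower genes (12.0%). The shares of the members were larger on both sides, and that difference was not tested. The count of 25 members called in flesh fell to 16 without ethylene replicate 1.

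The lower genes with the largest falls in flesh among those called were Soltu.DM.07G021920 and Soltu.DM.03G021660. Soltu.DM.03G021660 stood at 43.7, 54.8, 58.4 and 57.1 CPM in ethylene flesh and at 96.2, 100.8, 87.7 and 88.1 CPM in control flesh of week 3. The groups were far apart, with a log2 fold change of -0.81 (SE 0.11, adjusted p = 1.55e-07). In buds of the same week it was at 53.5 ± 6.30 and 89.8 ± 6.21 CPM, so the tissues had nearly the same levels in both treatments. Soltu.DM.07G021920 was at 11.4, 12.1, 11.04 and 12.5 CPM with ethylene and 20.8, 31.4, 15.2 and 16.7 CPM in control flesh, without overlap (log2 fold change -0.84, SE 0.17, adjusted p = 0.000408).

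Soltu.DM.08G008930 had the largest fold change among the higher genes called in flesh that reached 5 CPM. Its ethylene libraries were at 5.42, 7.09, 5.31 and 3.16 CPM and its controls at 2.45, 4.04, 1.23 and 2.46 CPM, with overlap. The log2 fold change was 1.00 (SE 0.31, adjusted p = 0.0456). The call was lost when any 1 of 6 of the 8 libraries was left out.

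Soltu.DM.04G009790, the largest positive fold change past the threshold, moved against its bud direction and unevenly. It was at 12.2, 13.5, 1.69 and 0.553 CPM in ethylene flesh and at 1.84, 0, 0 and 2.54 CPM in control flesh, with overlap, and its log2 fold change was 2.53 (SE 0.67, adjusted p = 0.00977). Leaving out any 1 of 4 libraries ended the call. In week 3 buds its counts came almost wholly from control replicate 1, at 4.13 CPM, with the other controls at 0. Its place in the set rests on that library.

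**Figure D3:**
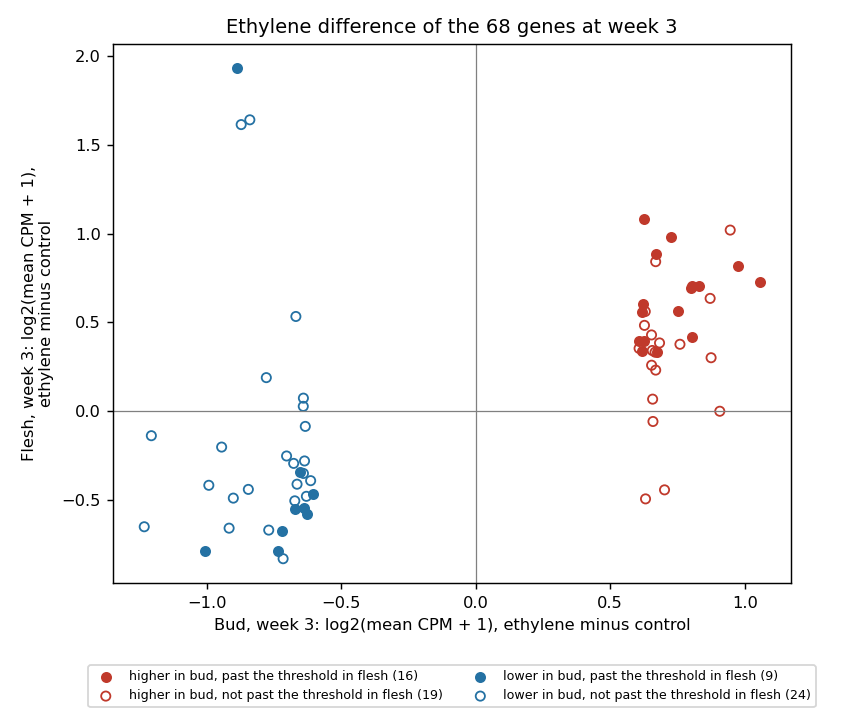
Each point is 1 of the 68 genes: d at week 3 in bud (horizontal) and the same quantity in flesh (vertical), both ethylene minus control of log2(mean CPM + 1). Filled points passed edgeR's threshold in flesh (16 of the 35 higher genes and 9 of the 33 lower genes, 1 of them against its bud direction), and 1 of the open points on the right was not tested in flesh.

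The later weeks of ethylene in flesh, with no limit from the rule, held fewer such calls until week 15. At week 6, 1 higher gene rose and 2 fell, and 6 lower genes fell (3.54% of all genes called higher and 3.55% lower). At week 9, 4 lower genes fell and no other member passed (0.755% and 0.921%). At week 12, 3 lower genes fell and 1 rose (1.56% and 1.72%). No higher gene passed at weeks 9 and 12 by edgeR, where 3 and 6 of them had an unadjusted p under 0.05 and DESeq2 called 4 members in all in each week. At week 15, 13 higher genes rose, and the lower genes split into 5 higher and 5 lower (16.2% and 14.1%). All calls are from edgeR with Benjamini-Hochberg adjustment. The counts of weeks 9 and 12 rested on single libraries, and that of week 6 was 5 to 8 when any 1 library was left out. The 9 members of week 6 were 5 without ethylene replicate 1 or 2, and 19 when only the groups of that week were fitted. The 4 of week 9 were 0 without control replicate 1, 2 or 4 or ethylene replicate 1 or 2, and 1 or 2 without ethylene replicate 4 or control replicate 3. The 4 of week 12 were 1 or 2 without control replicate 1, 2 or 3 or ethylene replicate 2 or 3.

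Soltu.DM.07G021920 was called lower under ethylene in flesh at weeks 9, 12 and 15 as well as at week 3. At week 15 it was at 27.4, 21.6, 26.3 and 30.3 CPM against 46.98, 43.8, 47.1 and 45.3 CPM in controls, without overlap (log2 fold change -0.71, SE 0.12, adjusted p = 5.44e-06). Its calls at weeks 9 and 12 were smaller, with log2 fold changes of -0.47 at both (adjusted p = 0.0442 and 0.0178), and leaving out single libraries ended them. Soltu.DM.07G011660, another lower gene, fell by 0.38 at week 9 (SE 0.10, adjusted p = 0.0252), a call that 7 of the 8 libraries could each end, and by 0.57 at week 15 (SE 0.10, adjusted p = 3.78e-06). In bud the rule caps the difference at these weeks. There the edgeR log2 fold changes of Soltu.DM.07G021920 were -0.41 at week 9 and -0.05 at week 15. Those of Soltu.DM.07G011660 were -0.24 and -0.01. Differences between the tissues at these weeks were not tested.

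Soltu.DM.01G008040 turned round in flesh. At week 3 it was at 33.01, 31.7, 38.05 and 35.8 CPM under ethylene and 53.1, 51.3, 50.2 and 50.2 CPM in controls (log2 fold change -0.56, SE 0.14, adjusted p = 0.00512). At week 15 it was at 8.62, 11.1, 14.6 and 13.5 CPM under ethylene and 4.05, 5.03, 3.29 and 4.07 CPM in controls, a log2 fold change of 1.64 (SE 0.24, adjusted p = 2.01e-07). The libraries of both weeks were apart, on opposite sides. The level in control flesh had meanwhile dropped from 51.2 ± 1.34 to 4.11 ± 0.71 CPM.

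Soltu.DM.08G008940 was higher under ethylene at weeks 3 and 15 in flesh, while its control level there was 56.3 ± 2.91 CPM at week 3 and 6.70 ± 1.85 CPM at week 15. In week 3 buds it was at 103.9, 103.7, 106.7 and 103.5 CPM under ethylene and at 71.2, 70.2, 67.3 and 61.8 CPM in controls. In week 3 flesh it rose from 56.3 ± 2.91 to 86.04 ± 4.82 CPM (log2 fold change 0.59, SE 0.14, adjusted p = 0.00315). At week 15 flesh was at 8.76, 17.7, 22.6 and 16.0 CPM under ethylene and 8.01, 6.76, 7.97 and 4.07 CPM in controls, again without overlap (log2 fold change 1.37, SE 0.23, adjusted p = 3.15e-06).

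The remaining members named at these weeks gave smaller or less even changes. The higher gene Soltu.DM.01G035650 rose at week 6 from 70.5 ± 3.41 to 92.8 ± 2.06 CPM (log2 fold change 0.44, SE 0.10, adjusted p = 0.00185). At the same week the lower genes Soltu.DM.12G015100 and Soltu.DM.04G026760 fell by 0.87 (adjusted p = 0.0149) and 0.72 (adjusted p = 0.0455) on the log2 scale, and single libraries could end both calls. At week 12 Soltu.DM.11G022370, a lower gene, fell from 1023 ± 32.6 to 890 ± 17.4 CPM (log2 fold change -0.27, adjusted p = 0.00700), a call lost without 1 control or 1 ethylene library. Soltu.DM.04G009820, a lower gene in bud, was called higher that week from libraries at 2.62, 14.4, 18.4 and 7.75 CPM against 0.748, 0, 0.880 and 7.08 CPM, which overlapped (log2 fold change 2.47, SE 0.70, adjusted p = 0.0336). Leaving out any 1 of 5 of these 8 libraries ended the call.

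Whether the flesh effect of week 3 differed from later ones was tested directly, as the week 3 effect minus the mean effect of weeks 6 to 15, a comparison added after the data were seen. It was larger at week 3 in 4 higher genes and lower at week 3 in 8 lower genes, with no call in the other directions (1.15% of all genes were called higher and 2.44% lower, 3.6% together; edgeR with Benjamini-Hochberg adjustment). The median of the difference was 0.35 for the higher genes and -0.42 for the lower genes. Signs ran with the bud direction in 29 of 34 and 26 of 33. Soltu.DM.09G001200 had week 3 flesh levels of 90.7, 106.1, 106.3 and 86.3 CPM under ethylene and 47.3, 50.3, 41.8 and 56.2 CPM in controls, without overlap, and at week 6 the order was turned, with 68.6 ± 8.70 CPM under ethylene and 95.5 ± 4.76 CPM in controls. Its difference between week 3 and the later weeks was 0.91 on the log2 scale (SE 0.13, adjusted p = 1.83e-06).

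Other differences named by the rule were -0.94 for Soltu.DM.01G008040 (SE 0.17, adjusted p = 7.46e-05), 0.71 for Soltu.DM.09G003740 (SE 0.22, adjusted p = 0.0494) and -0.55 for Soltu.DM.01G036240 (SE 0.16, adjusted p = 0.0379). The calls of Soltu.DM.09G003740 and Soltu.DM.01G036240 ended when single libraries were left out. The count of 12 fell to 7 without ethylene replicate 2 of week 3. The other 55 of the 67 members tested did not pass, which does not show that their effects were equal.

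After ethylene was withdrawn, 2, 14 and 1 of the 68 members differed in bud from the controls of weeks 16, 17 and 18. At week 16, 1 week after ethylene, 1 higher and 1 lower gene fell below the controls and none rose (0.769% of all genes called higher, 1.28% lower). At week 17, 7 higher genes rose and 3 fell, and 1 lower gene rose and 3 fell (11.3% and 4.51%). These were 20% and 8.57% of the higher genes, and 3.03% and 9.09% of the lower genes. At week 18, 1 lower gene was below the controls and no higher gene passed (2.11% and 1.25%). There 5 higher genes had an unadjusted p under 0.05, and DESeq2 called 2 members in all. The count of 1 was 2 without replicate 2 or 3 of the buds after ethylene. Without the week 17 library that stood apart, the counts of weeks 16 and 18 were 4 and 6, and the share of all genes was not worked out. The median log2 fold changes of the higher and lower genes were -0.14 and -0.09, 0.12 and 0.01, then 0.07 and -0.05 over the 3 weeks. All calls are from edgeR with Benjamini-Hochberg adjustment.

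The gene below the controls at week 18 was Soltu.DM.01G040830, which was also the lower gene called at week 16. At week 16 it was at 747, 650, 671 and 648 CPM after ethylene and at 865, 990, 898 and 914 CPM in controls, and at week 18 at 744, 670, 708 and 741 CPM against 1106, 987, 976 and 896 CPM. Neither week overlapped, and the log2 fold changes were -0.43 (SE 0.08, adjusted p = 0.000509) and -0.48 (SE 0.08, adjusted p = 5.58e-05). This gene had been at 501 ± 31.1 CPM in ethylene buds of week 3, against 781 ± 49.01 CPM in controls. It had also been called lower by edgeR in ethylene buds at weeks 6, 9 and 12, with log2 fold changes of -0.25, -0.26 and -0.36. At week 15 it was not called (-0.04), and at week 17 it was called lower (-0.28, adjusted p = 0.0113). Its difference was thus not limited to week 3 and the weeks after ethylene. The higher gene Soltu.DM.01G045380 was below the controls at week 16, at 19.99, 22.9, 20.3 and 21.5 CPM against 32.96, 37.1, 31.9 and 30.4 CPM, opposite to its week 3 direction (log2 fold change -0.64, SE 0.13, adjusted p = 0.00151).

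The calls of week 17 leaned on 1 library. Replicate 1 of the buds 2 weeks after ethylene held Soltu.DM.10G005900 at 72.04 CPM, with the others at 11.4, 11.2 and 36.02 CPM and the controls between 10.4 and 13.9 CPM. It held Soltu.DM.03G016600 at 41.5 CPM, with the others at 10.1, 7.41 and 10.2 CPM and the controls between 7.36 and 11.7 CPM. Both passed (log2 fold changes 1.60 and 1.13, adjusted p = 0.000380 and 0.00577), and both calls were lost without that library. The lower calls of Soltu.DM.01G045020 (log2 fold change -1.31, adjusted p = 0.0403) and Soltu.DM.04G034260 (-0.70, adjusted p = 0.0436) were also ended by leaving out single libraries. Without that library 3 of the 14 members called at week 17 were left as a count, and without control replicate 1 or 2 the count was 9 or 8. When only the 2 groups of week 17 were fitted, the count was 0.

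Over the whole of storage without ethylene, 40 members changed in bud in their week 3 direction and 5 in the other, in libraries of weeks 0 and 18 that the rule did not use. At week 18, 24 of the 35 higher genes were above week 0 and 3 below, and 16 of the 33 lower genes were below and 2 above (28% of all genes called higher and 22.3% lower; edgeR with Benjamini-Hochberg adjustment). The median log2 fold change was 0.80 for the higher genes, -0.51 for the lower genes and 0.08 over all genes tested. Hence the direction under ethylene at week 3 was, for most members called, also their direction over storage.

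Soltu.DM.06G031500 rose from 368, 414, 452 and 341 CPM at week 0 to 1669, 1490, 1783 and 2057 CPM at week 18, a log2 fold change of 1.92 (SE 0.22, adjusted p = 4.14e-11). In week 3 buds it was at 932, 723, 701 and 776 CPM under ethylene and 478, 460, 433 and 422 CPM in controls, and both treatments were higher and close together at week 6 (1619 ± 145 and 1557 ± 197 CPM). Soltu.DM.07G027200 rose from 1.48 ± 0.28 to 6.92 ± 1.88 CPM (log2 fold change 2.01, SE 0.27, adjusted p = 9.59e-09).

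Soltu.DM.03G021660 fell from 167, 194, 185 and 172 CPM at week 0 to 41.7, 52.1, 45.4 and 50.9 CPM at week 18 (log2 fold change -2.15, SE 0.10, adjusted p = 2.06e-26). Control buds were at 89.8 CPM at week 3 and 63.2 CPM at week 6, while ethylene buds were already at 53.5 CPM at week 3. Soltu.DM.01G036240 fell from 72.5 ± 4.59 to 26.9 ± 1.15 CPM (log2 fold change -1.66, SE 0.11, adjusted p = 8.51e-20).

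In control flesh, members were also called in both directions over storage. From week 0 to week 3, 9 higher genes rose and 1 fell, and 8 lower genes fell and 1 rose (9.73% of all genes called higher and 9.11% lower; edgeR with Benjamini-Hochberg adjustment). From week 0 to week 18, 15 higher genes rose and 5 fell, and 10 lower genes fell and 5 rose (17.0% and 18.7%). The median log2 fold changes to week 18 were 0.30 and -0.41.

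Soltu.DM.03G016600 rose in control flesh from 5.80, 4.94, 5.97 and 7.89 CPM to 29.8, 28.4, 46.8 and 35.9 CPM by week 3 (log2 fold change 2.52, SE 0.18, adjusted p = 3.29e-18). Under ethylene it was not called in flesh at week 3 (adjusted p = 0.909 by edgeR), but it was called lower at week 6 (log2 fold change -0.52, adjusted p = 0.0166) and higher at week 15 (0.78, adjusted p = 8.95e-05). Soltu.DM.04G000490 rose from 5.87 ± 0.79 to 12.4 ± 1.81 CPM (adjusted p = 5.06e-05). Soltu.DM.12G015100 fell from 23.1 ± 1.38 to 6.09 ± 1.29 CPM (log2 fold change -1.94, SE 0.19, adjusted p = 2.18e-12), and Soltu.DM.07G021940 from 17.8 ± 3.66 to 10.7 ± 1.76 CPM (adjusted p = 0.00130).

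By week 18 Soltu.DM.01G042880 had risen in control flesh from 4.98, 3.60, 7.27 and 6.20 CPM to 20.9, 21.4, 20.6 and 26.4 CPM (log2 fold change 2.10, SE 0.19, adjusted p = 9.53e-15). Soltu.DM.10G005900, lower in bud under ethylene, rose from 1.5 ± 0.60 to 5.87 ± 1.81 CPM (adjusted p = 1.44e-05). Soltu.DM.08G008940 dropped from 41.6, 43.9, 42.8 and 37.3 CPM to 1.28, 1.61, 1.32 and 0.503 CPM, a log2 fold change of -5.06 (SE 0.30, adjusted p = 1.18e-22), though it was a higher gene under ethylene at week 3. Soltu.DM.03G023550 had no counts in any of the 4 libraries at week 18, against 23.5, 0.498, 6.04 and 21.7 CPM at week 0 (adjusted p = 0.000328), and no fold is given because the week 0 libraries are so unequal.

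**Figure D4:**
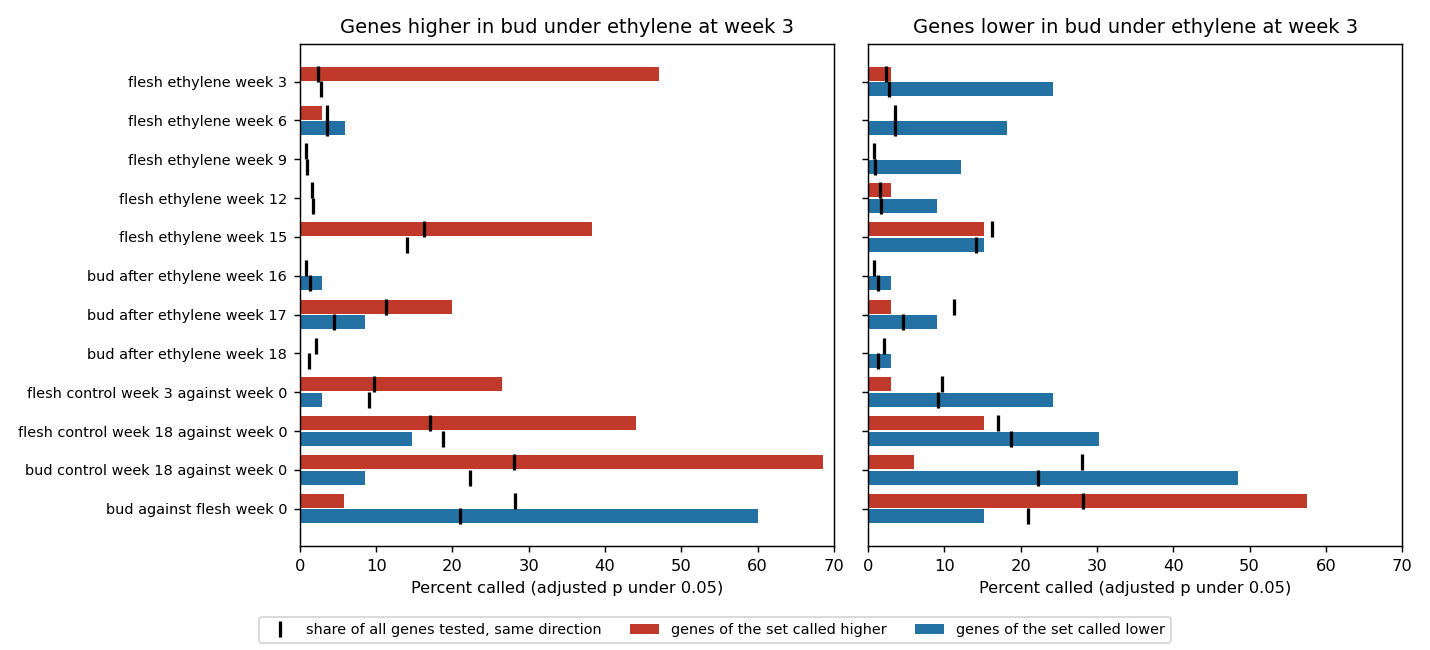
Bars give the percent of the higher genes (left) and lower genes (right) that passed edgeR's threshold as higher (red) or lower (blue) in each comparison the rule did not use; black ticks give the percent of all genes tested called in the same direction. For flesh under ethylene at week 3 the bars reach 47.1% of the higher genes tested and 24.2% of the lower genes, beside ticks at 2.34% and 2.75%.

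The members were spread over the 12 chromosomes named in their IDs. Chromosome 1 held 15 of them (22.1%), where it held 12.7% of the genes tested in bud, chromosome 4 held 9 and chromosomes 2 and 11 held 2 each. There were 4 pairs within 5 places of each other in the order of the IDs, each pair with the same direction: Soltu.DM.04G009790 with Soltu.DM.04G009820, Soltu.DM.07G011660 with Soltu.DM.07G011670, and Soltu.DM.07G021920 with Soltu.DM.07G021940 among the lower genes, and Soltu.DM.08G008930 with Soltu.DM.08G008940 among the higher genes. Correlations of log2(CPM + 1) values were taken over all libraries of both tissues, which share tissue and storage time. In the order given, the pairs had correlations of 0.83, 0.52, 0.45 and -0.01. The genes of the first pair had a higher week 3 bud mean of only 1.03 and 1.31 CPM. Whether such pairs are more frequent here than among all genes was not tested. These pairs were noticed after the values were seen.

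Transcript shares of the members differed little between the treatments at week 3. The deposited transcript table lists 1 transcript for 48 members and more for 20. Among the 20, the share of the leading transcript in week 3 buds differed by under 10 percentage points between ethylene and control in 16. In 2 more a group had no transcript counts, and over the other 18 the median size of the difference was 3.45 points. The share differed by more in Soltu.DM.12G027120, by -14.3 points under ethylene, and in Soltu.DM.01G042880, by 10.5 points. Both are higher genes, named after their values were seen, and no test was made of these shares.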

How the data were processed

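RNA was measured in 68 bud and 68 flesh libraries of stored potato tubers, from total RNA isolated with a Qiagen plant kit, per the labels' protocols. Trimmomatic, HISAT2, SAMtools and StringTie are named in the submitters' processing notes, without versions or roles, and no genome build is named in those notes or the labels. The authors deposited tables of whole-number counts per gene and per transcript, taken here as raw counts.

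The 1 row that names no gene (1.76% to 2.95% of counts) was left out. Title numbers (D0 to D18) match the design text's sampling times and were taken as weeks. CPM for levels and d used library totals and a pseudocount of 1. Tests used edgeR 4.0.16 in R 4.3.3 (quasi-likelihood, trimmed mean of M-values scaling, minimum count 10, minimum total 15), fitted over the 68 libraries of a tissue, or all libraries between tissues, with Benjamini-Hochberg adjustment over all genes and a threshold of 0.05. These steps were tested on simulated data. Groups came from the labels. DESeq2 1.42.0 size factors and test, no filter, only the groups compared, a replicate block and leaving out libraries were the alternatives.

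The members, the rule for named genes and the alternatives were chosen with earlier results of these data known. Named genes are at most 2 higher and 2 lower per comparison, largest first, past the threshold and with a mean of at least 5 CPM in a group; for bud at week 3 the groups had also to lie apart. The RefSeq gene table shared 0 IDs with the deposited table, so no gene list or cell type marker was applied and no sequence is printed.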

Additional observations from a re-analysis of the deposited data

Results flagged for a closer look

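Among the named members, 92 groups of 4 libraries were checked for 1 library far from the other 3, and 5 such libraries were found. Chance gives about 1 in 20 groups. In the control buds of week 3, replicate 4 held Soltu.DM.08G008540 at 14.2 CPM, with the others between 3.93 and 5.13 CPM. Without that library, or without ethylene replicate 1 or 2, the gene did not pass edgeR's threshold at week 3. Replicate 1 of the buds 2 weeks after ethylene held Soltu.DM.03G016600 at 41.5 CPM, and replicate 1 of the control buds of week 17 held it at 11.7 CPM. In control flesh, replicate 4 of week 12 held Soltu.DM.04G009820 at 7.08 CPM beside libraries from 0 to 0.880 CPM. Replicate 4 of week 18 control flesh held Soltu.DM.01G042880 at 26.4 CPM, with the others between 20.6 and 21.4 CPM.

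The ethylene effect in flesh at week 3 differed from the mean effect of weeks 6 to 15 in 12 members by edgeR's test of that difference, each in its bud direction, beside 3.6% of all genes tested in either direction.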

How the results depend on the processing

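Of 86 counts of members recomputed under other settings, 73 stayed within 1.5 times of the reported count, and none of the 249 refits of named genes under other settings changed sign, while 24 lost the call. Fitting only the groups compared gave 5 members for bud week 16 (2 as reported), 0 for week 17 (14), 6 for week 18 (1), 19 for flesh week 6 (9) and 1 for flesh week 12 (4). Without replicate 1 of the buds 2 weeks after ethylene, 4, 3 and 6 members were called at weeks 16, 17 and 18, and 28 in place of 16 at any of bud weeks 6 to 15. DESeq2 gave 2 for bud week 18, and its size factors gave 1 in place of 4 for flesh week 9. Without control replicate 4 and ethylene replicate 1 of week 3 together, 29 members were called in bud at week 3 in place of 50. The shares of all genes were not worked out for these settings, and the cause of these moves was not tested.

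Leaving out 1 library of the compared groups at a time gave 36 to 48 for bud week 3, 2 to 3, 3 to 20 and 1 to 2 for bud weeks 16, 17 and 18, 14 to 18 for any of bud weeks 6 to 15 and 41 to 46 for bud storage. In flesh it gave 16 to 22 at week 3, 5 to 8 at week 6, 0 to 4 at week 9, 1 to 5 at week 12, 18 to 24 at week 15, 7 to 12 for week 3 against later weeks, 16 to 20 and 30 to 34 for control weeks 3 and 18 against week 0, and 42 to 47 between tissues. Of 504 such refits of named genes, 99 lost the call. The rule itself kept 65 to 93 genes without 1 week 3 library, 58 with trimmed-mean scaling (45 shared with the 68), 99 with a pseudocount of 0.5 (48 shared) and 65 with a mean of logs (59 shared).

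With a replicate block 2 members were called at bud week 18 in place of 1, 51 at bud week 3 and 26 at flesh week 3. No other count moved by over 1.5 times under the block, and the numbers share no stated source: 29 of 76 same-numbered pairs had a correlation over 0.1 in their deviations, and in 0 of 19 comparisons did all 4 pairs. At low counts a difference can be below what these depths detect: 7 members were under 1 CPM in both week 3 groups.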

Other observations

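Flesh in the weeks after ethylene was not part of the comparisons above, and its values are given without a test. The 35 genes higher in bud at week 3 had a positive d (log2 of mean CPM + 1, after ethylene minus control of the same week) in 17 genes at week 16, 25 at week 17 and 27 at week 18, with medians of 0, 0.12 and 0.12. Over all genes with counts in either group, 55.3%, 54.7% and 51.2% had a positive d in those weeks, with medians of 0.04, 0.02 and 0.01. The 33 lower genes had a positive d in 16, 15 and 18 genes, with medians of -0.01, -0.02 and 0.02.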
